A study of Mus musculus with 16 samples.

Results

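Loss of the autoimmune regulator Aire was examined in MHC class II-low medullary thymic epithelial cells (mTEClo) by ATAC-seq, which marks open chromatin through insertion of the transposase Tn5. The comparison sets 2 Aire-/- mTEClo libraries against 2 Aire+/+ mTEClo libraries. Its members are the 205445 regions, of 250313 in the whole table, whose mean signal over those 4 libraries was at least 7.5; they make up 82.1% of the table. Each region is 500 bp long and its coordinates are in the mouse build mm9. The 3 regions nearest below the threshold and the 3 nearest above it all had a mean of 7.5 at the printed precision. Their log2 fold changes, Aire-/- over Aire+/+, were -1.25, -0.08 and 0.27 just inside and 0.04, 0.71 and 1.51 just outside.

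All libraries came from thymi of C57BL/6 mice aged 4 weeks, and the groups used here are Aire-/- mTEClo, Aire+/+ mTEClo, Brg1-/- mTEClo, Brg1+/+ mTEClo, and the same genotypes in MHC class II-high cells (mTEChi), with 2 libraries each. Cells were sorted as DAPI-negative, CD45-negative, EpCAM+, UEA+ and Ly51-low, and 60000 went into each transposition reaction. The labels do not state which allele or Cre driver removes Brg1, or whether a library holds 1 mouse or a pool. Nothing in them says that the replicates are separate animals, so p-values measure the spread between these libraries, which may be technical.

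Aire is a transcriptional regulator that lets medullary thymic epithelial cells express many genes of peripheral tissues, so that maturing T cells meet self antigens in the thymus. It is known to be made mainly by mTEChi cells. mTEClo are a mixed population that is known to hold precursors of the Aire-expressing cells, chemokine-producing cells, and cells that have already passed through the Aire-expressing stage. Brg1 (Smarca4) is an ATPase subunit of the SWI/SNF chromatin remodelling complexes.

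The deposited values are a normalised signal and not read counts, so sequencing depth is unknown and no counting interval can be given. Median signal over members was 16.2 and 15.8 in the Aire-/- libraries, against 14.99 and 16.5 in the Aire+/+ libraries, so the genotypes overlapped. The 99th percentile over the whole table lay at 214 in all 4. A 0 was listed for 584 members in Aire-/- replicate 2 and for 780 in Aire+/+ replicate 2, and for none in the other 2 libraries. Regions were not linked to genes, so neither the genotypes nor the sorted cell type could be checked at a locus, and both rest on the labels.

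No region differed between Aire-/- and Aire+/+ mTEClo at an adjusted p under 0.05, in either direction (limma on log2(signal + 1), 8 mTEClo libraries, Benjamini-Hochberg over all 250313 regions; percent called 0). The smallest adjusted p was 0.520. At an unadjusted p under 0.05 there were 8230 members, of which 3974 were higher and 4256 lower in Aire-/-; that is 4.01% of members, against 4.03% of the whole table (percent called 2 higher and 2.03 lower). A fit over all 16 libraries also called 0 regions and gave 2.67% of the table an unadjusted p under 0.05. The median log2 fold change over members was -0.00397 (Aire-/- over Aire+/+), the 5th and 95th percentiles were -0.97 and 0.96, and the median size of a change was 0.34 in either direction.

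Leaving out 1 library at a time changed the count. Without Aire-/- replicate 1, 24 regions were called, all lower in Aire-/-, and without Aire+/+ replicate 1, 33 were called, all higher. Without Aire-/- replicate 2 or Aire+/+ replicate 2, 0 were called. In each of these fits 1 genotype is a single library, which is assumed to vary like the other groups.

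The 4 libraries did not divide by genotype. Aire-/- replicate 1 and Aire+/+ replicate 1 were the most alike of the 6 pairs, with a Pearson r of 0.87 across members and 9.54% of members differing by more than 2-fold. Aire-/- replicate 2 and Aire+/+ replicate 2 were the least alike, with an r of 0.70 and 24.2% of members past 2-fold. Within a genotype, 17.6% of members differed by more than 2-fold between the Aire-/- libraries (r = 0.79), and 17.5% between the Aire+/+ libraries (r = 0.77). The other pairs between genotypes gave 19.7% for Aire-/- replicate 1 with Aire+/+ replicate 2, and 17.0% for Aire-/- replicate 2 with Aire+/+ replicate 1. The within-genotype values therefore lay inside the range of the between-genotype values. These correlations run across regions that share a library and its scaling, and are descriptions only.

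**Figure D1:**
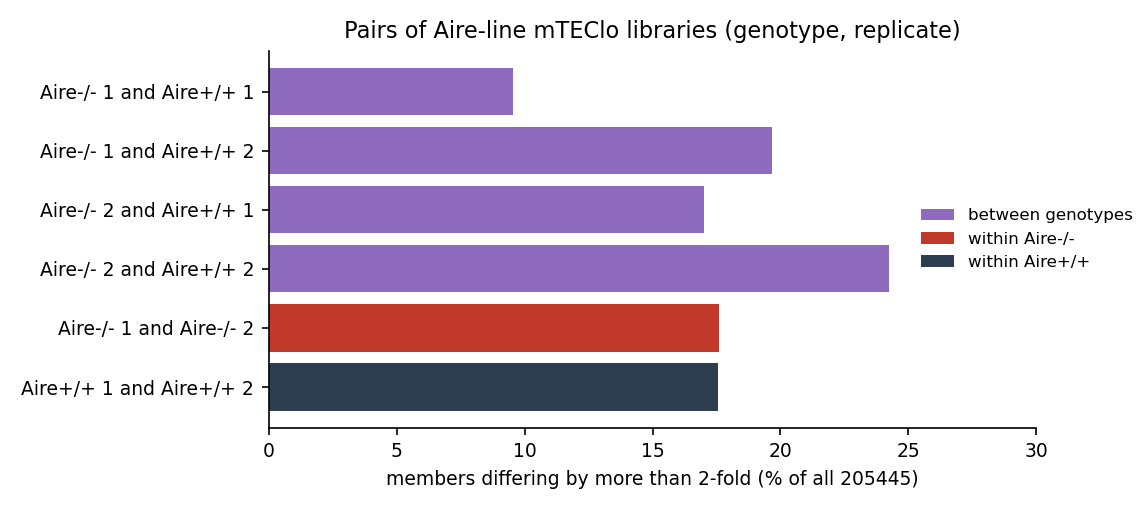
Horizontal bars give the percentage of members whose log2(signal + 1) differed by more than 2-fold between 2 Aire-line mTEClo libraries, for the 4 pairs between genotypes and the 2 pairs within a genotype. The within-genotype bars, 17.6% and 17.5%, lie between the lowest and highest between-genotype bars, 9.54% and 24.2%.

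A principal component analysis of the 8 mTEClo libraries showed the same order. The first component held 33.8% of the variance and placed all 4 Aire-line libraries at -127.5 to -228.2 and all 4 Brg1-line libraries at 115.3 to 218.5. On the third component, with 13.2%, Aire-/- replicate 2 stood at 192.1 and Aire+/+ replicate 2 at -242.2. The replicates numbered 1 stood at 47.9 (Aire-/-) and 22.03 (Aire+/+) on that component. On that component the 2 libraries numbered 2 were thus the ones far apart, and the 2 numbered 1 lay side by side. On the first component those numbered 2 stood near each other, at -206.6 (Aire-/-) and -228.2 (Aire+/+). Those numbered 1 stood there at -147.2 (Aire-/-) and -127.5 (Aire+/+).

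The size of the fold changes was close to what the replicates alone give. Their SD over members was 0.60 on the log2 scale, against 0.59 computed from the differences between replicates within each genotype, a ratio of 1.02. Across deciles of members ordered by mean signal the ratio ranged from 0.994 to 1.06, the highest value in decile 9. For Brg1 loss in the same cell type, measured in 4 other libraries, the SDs were 0.77 and 0.68, a ratio of 1.13 that reached 1.47 in the decile of highest signal. For Aire the SD of the fold changes was 0.80 in the lowest decile and 0.26 in the highest.

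**Figure D2:**
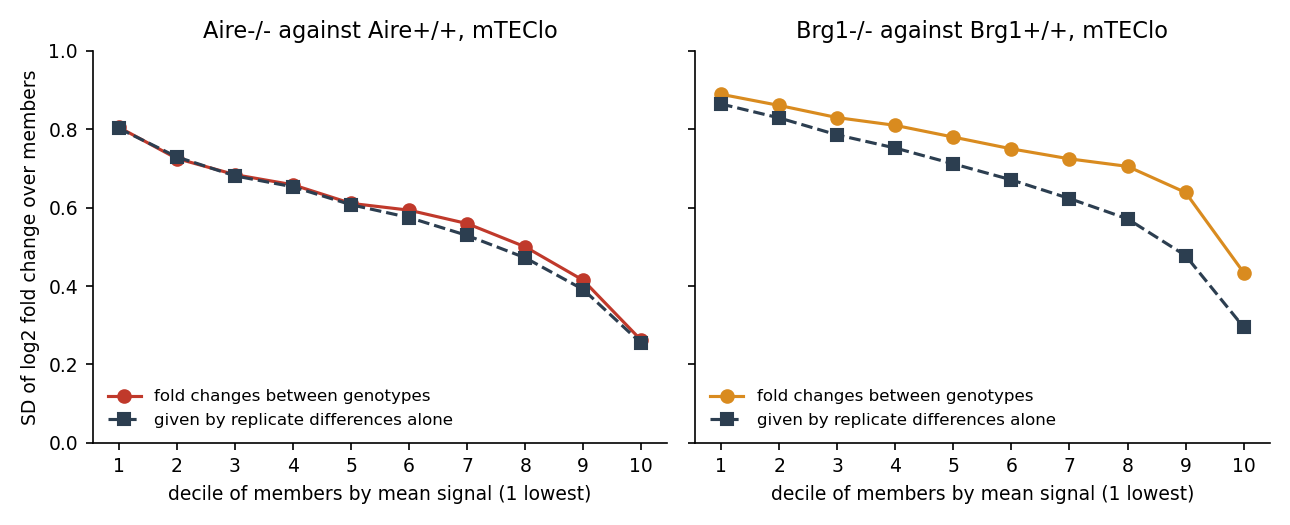
SD of the log2 fold changes (solid lines) and the SD that replicate differences alone give (dashed lines), over members in deciles of mean signal, for Aire-/- against Aire+/+ (left) and Brg1-/- against Brg1+/+ (right) in mTEClo. The 2 lines for Aire stay within a ratio of 0.994 to 1.06, while those for Brg1 part to a ratio of 1.47 in the highest decile.

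These data limit changes well at strong regions and poorly at weak ones. In the decile of highest signal, from 63.4 to 1053, the 95% interval of the log2 fold change lay within ±1 for 17933 of 20545 members (87.3%). In decile 9 this held for 35.6%, in decile 8 for 7.34%, and over all members for 13.1%. An interval within ±2, which leaves out changes beyond 4-fold, was reached by 156982 members (76.4%). The median distance from a fold change to either end of its interval was 1.15 over all members. These intervals use a spread pooled with the Brg1-line mTEClo libraries, whose replicates differed more than the Aire-line ones. At most members the interval therefore still held changes beyond 2-fold in at least 1 direction.

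Without regard to a test, both Aire-/- libraries lay above both Aire+/+ libraries at 34306 members (16.7%; percent called 16.7 in the whole table) and below both at 35388 (17.2%; percent called 17.1). The mean difference among these reached 2-fold at 6139 members upward (2.99%) and 6810 downward (3.315%), a share that was not counted over the whole table. Between single replicates of the same genotype, 17.6% (Aire-/-) and 17.5% (Aire+/+) of members differed by more than 2-fold. For Brg1 the groups did not overlap at 80884 members (39.4%), with 38.6% called over the whole table.

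Brg1 loss is the comparison of the series most like this one, with the same sort and fit and fold changes from other libraries. The fit gives both comparisons the same spread per region, with a median SE of 0.56 for each. Replicate differences over members had SDs of 0.82 and 0.85 in the Aire groups, against 0.98 and 0.94 in the Brg1 groups. The shared spread was thus stricter for Aire and more lenient for Brg1. Fits of only the 4 libraries compared called 0 regions for Aire and 11 for Brg1. It gave 231 called regions, 226 lower and 5 higher in Brg1-/- (percent called 0.0923, with 0.0903 lower and 0.002 higher), all of them members here. At an unadjusted p under 0.05 Brg1 loss had 11.7% of members, against 10.3% of the whole table. The count of 231 was 0 without Brg1+/+ replicate 1 and 0 without Brg1+/+ replicate 2. The difference between the Aire effect and the Brg1 effect was itself tested, and passed at 0 regions (percent called 0; smallest adjusted p 0.215), with 16596 regions or 6.63% at an unadjusted p under 0.05. No region was thus shown to respond differently to loss of Aire and loss of Brg1 in mTEClo.

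**Figure D3:**
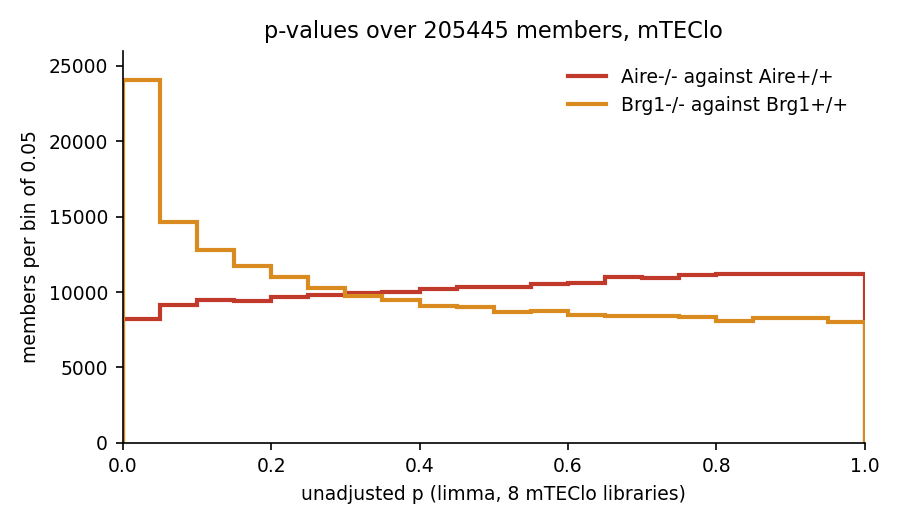
Number of members per bin of 0.05 of the unadjusted p (limma, 8 mTEClo libraries), for Aire-/- against Aire+/+ and for Brg1-/- against Brg1+/+. The Aire line is lowest in the first bin, at 8230 members, where the Brg1 line is highest, at 24049.

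At the 226 members lower without Brg1, the Aire fold change had a median of -0.14, with 156 below 0 and 70 above. Of these members 16 (7.08%) were lower and 2 (0.885%) higher in Aire-/- at an unadjusted p under 0.05, against 2.07% lower and 1.93% higher over all members. The Brg1 calls and the Aire p-values use the same spread for each region. These shares are thus not independent of how the 226 were chosen. The median signal of the 226 was also higher, at 67.3, against 15.7 over all members. Both Aire-/- libraries lay below both Aire+/+ libraries at 79 (35.0%) and above them at 16 (7.08%), against 17.1% below and 16.7% above in the whole table. The Aire interval lay within ±1 at 112 of the 226. Of the 226, 127 also belong to the mTEClo-marked class described next, which holds 7151 of all 205445 members. Both lists were chosen for high signal in the same Brg1+/+ mTEClo libraries, so the choice itself favours this overlap. Over all members the Aire and Brg1 fold changes had an r of 0.01 and the same sign in 51.0%.

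Members were then divided by how mTEChi and mTEClo differ in Brg1+/+ mice, in libraries whose values do not enter the Aire fold change. The Brg1+/+ mTEClo libraries do enter the spread used for the Aire p-values. Counts at an unadjusted p by class are therefore not independent of the rule for the class. Regions with more signal in mTEChi are called mTEChi-marked (17588 in the table, percent called 7.03, 13320 of them members) and those with more in mTEClo mTEClo-marked (7153, percent called 2.86, 7151 members). Among mTEClo-marked members the median Aire fold change was -0.12, against 0.00403 at the 184974 unmarked and -0.03 at the mTEChi-marked members. No member of any class passed the test. At an unadjusted p under 0.05, 450 mTEClo-marked members (6.29%) were lower and 70 (0.979%) higher in Aire-/-, against 2.07% lower and 1.93% higher over all members. The unmarked members had 3506 (1.90%) lower and 3638 (1.97%) higher, and the mTEChi-marked 300 (2.25%) lower and 266 (2.00%) higher.

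The mTEClo-marked members had a median log2(signal + 1) of 6.09 and 6.24 in the Aire-/- libraries, against 6.29 and 6.32 in the Aire+/+ libraries. Both Aire-/- libraries were lower, without overlap, and the mean difference was -0.14; the exact two-sided permutation p was 0.333, the smallest that 2 against 2 allows. Measured against the unmarked members of the same library, the excess was 2.04 and 2.20 in Aire-/- and 2.30 and 2.22 in Aire+/+, again without overlap but by a narrow margin. Measured against the mTEChi-marked members instead, it was 2.39 and 2.45 in Aire-/- and 2.61 and 2.37 in Aire+/+, and the genotypes overlapped. The mTEChi-marked members stood at 3.70 and 3.79 in Aire-/-, against 3.68 and 3.95 in Aire+/+, and overlapped. In bulk libraries of sorted cells, fewer cells that hold a region open and less opening per cell cannot be told apart.

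**Figure D4:**
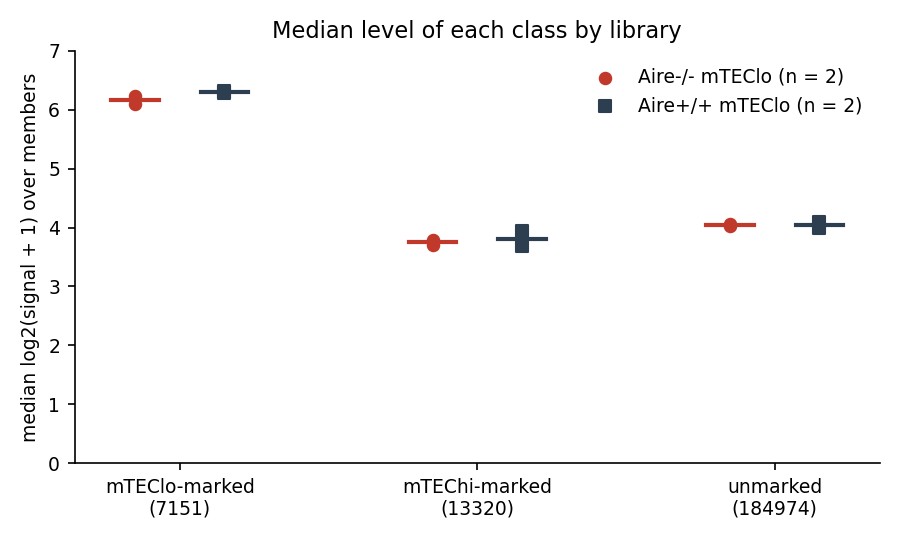
Median log2(signal + 1) over the members of each class in each Aire-line mTEClo library (points), with the mean of each genotype as a horizontal line. The Aire-/- points of the mTEClo-marked class, 6.09 and 6.24, lie below the Aire+/+ points, 6.29 and 6.32, while the other 2 classes overlap.

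The mTEClo-marked members are strong regions, and 4224 of the 7151 fall in the decile of highest signal. Within that decile their median fold change was -0.10, against 0.01 for unmarked members of like signal, and 265 were lower and 27 higher at an unadjusted p under 0.05. In decile 9 the medians were -0.16 and -0.01. From decile 5 up, the mTEClo-marked median ranged from -0.17 to -0.10, and the unmarked one from -0.01 to 0.09. In all, 1997 mTEClo-marked members (27.9%) had both Aire-/- libraries below both Aire+/+ libraries and 695 (9.72%) had them above, against 17.1% below and 16.7% above in the whole table.

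Leaving out 1 Aire-line library at a time, the mTEClo-marked median stayed below 0, between -0.14 and -0.08, the smallest size being without Aire-/- replicate 1. The mTEChi-marked median changed sign among these fits, from -0.11 without Aire+/+ replicate 1 to 0.03 without Aire-/- replicate 1. In mTEChi, the same classes had Aire medians of -0.15 (mTEClo-marked) and 0.14 (mTEChi-marked), from 4 other libraries.

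Across chromosomes, the median Aire fold change lay between -0.05, on chromosome 11, and 0.11, on chromosome X. The next highest was 0.04, on chromosome 18. On chromosome X, 97 of 3564 members (2.72%) were higher and 27 (0.758%) lower at an unadjusted p under 0.05, against 1.93% higher and 2.07% lower over all members. Together these were 3.48% of the members on X, against 4.01% of all members. Its median signal was 13.9 and 20.9 in Aire-/-, against 12.6 and 18.1 in Aire+/+. Replicate 2 was the higher one in both genotypes, and the difference between replicates exceeded that between genotypes. The SD of fold changes on chromosome X was 0.88 times what its replicate differences give, and the part of this replicate shift in the median was not tested.

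The 7081 members with at most 2 other regions of the table within 50 kb had a median fold change of 0.05, with 216 (3.05%) higher and 115 (1.62%) lower in Aire-/- at an unadjusted p under 0.05. The 151051 members with more than 10 others had a median of -0.02, with 2612 (1.73%) higher and 3277 (2.17%) lower. On the autosomes alone the medians were 0.04 (6342 isolated members) and -0.02. The median signal of the isolated members was 13.6 and 14.5 in Aire-/-, against 12.3 and 14.5 in Aire+/+. Aire+/+ replicate 1 was the lowest, and the genotypes overlapped.

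Neighbouring members hardly moved together. Fold changes of adjacent members less than 1 kb apart had an r of 0.07, and 52.6% shared a sign. Differences between replicates gave 0.05 at that distance in each genotype, and Brg1 fold changes 0.10. For Aire the r was 0.04 at 1 to 5 kb, 0.02 at 5 to 20 kb and 0.01 at 20 to 100 kb.

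Averaging members over 1 Mb of a chromosome did not bring out a change either. Of 2306 bins with at least 10 members, 0 passed at an adjusted p under 0.05 (limma; percent called 0), and 60 had an unadjusted p under 0.05 (percent called 2.6). The interval of the mean fold change lay within ±0.5 for 88.5% of the bins, whose fold changes ranged from -0.45 to 0.66. The smallest adjusted p, 0.192, belonged to the bin from 97000001 to 98000000 on chromosome 1. Its 12 members averaged 4.73 and 4.91 in Aire-/-, against 4.38 and 4.16 in Aire+/+, on the log2(signal + 1) scale. Both Aire-/- libraries were higher, by 0.54 ± 0.10 (SE). Next came bins on chromosomes 9, 5, 1 and 18, with log2 fold changes of 0.36 to 0.45 and adjusted p-values of 0.308 to 0.458. Without Aire-/- replicate 1, 8 bins were called, all higher in Aire-/-, and without any of the other 3 libraries 0 were called.

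Of the 5 bins named as lower, the one with the largest change was on chromosome 12 from 69000001 to 70000000. Its 11 members averaged 3.66 and 3.69 in Aire-/-, against 3.94 and 4.30 in Aire+/+, a log2 fold change of -0.45 (adjusted p 0.998, limma). The other 4 lay on chromosomes 11, 11, 7 and 15, with changes of -0.25 to -0.22, and in all 5 both Aire-/- libraries were lower.

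With 0 regions called, members are named by the smallest unadjusted p among those of at least the median signal whose genotypes did not overlap, 10 in each direction. None passed the test, so their values are descriptions and their non-overlap was required by the choice. Several were below the median signal in the genotype where they are low, and so met that floor only through the other genotype. The 10 lower in Aire-/- lay on 10 chromosomes and had log2 fold changes of -2.94 to -1.31. The 10 higher lay on 7 chromosomes, with changes of 0.65 to 3.42. Adjusted p-values were 0.664 to 1 for the lower and 1 for the higher.

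**Figure D5:**
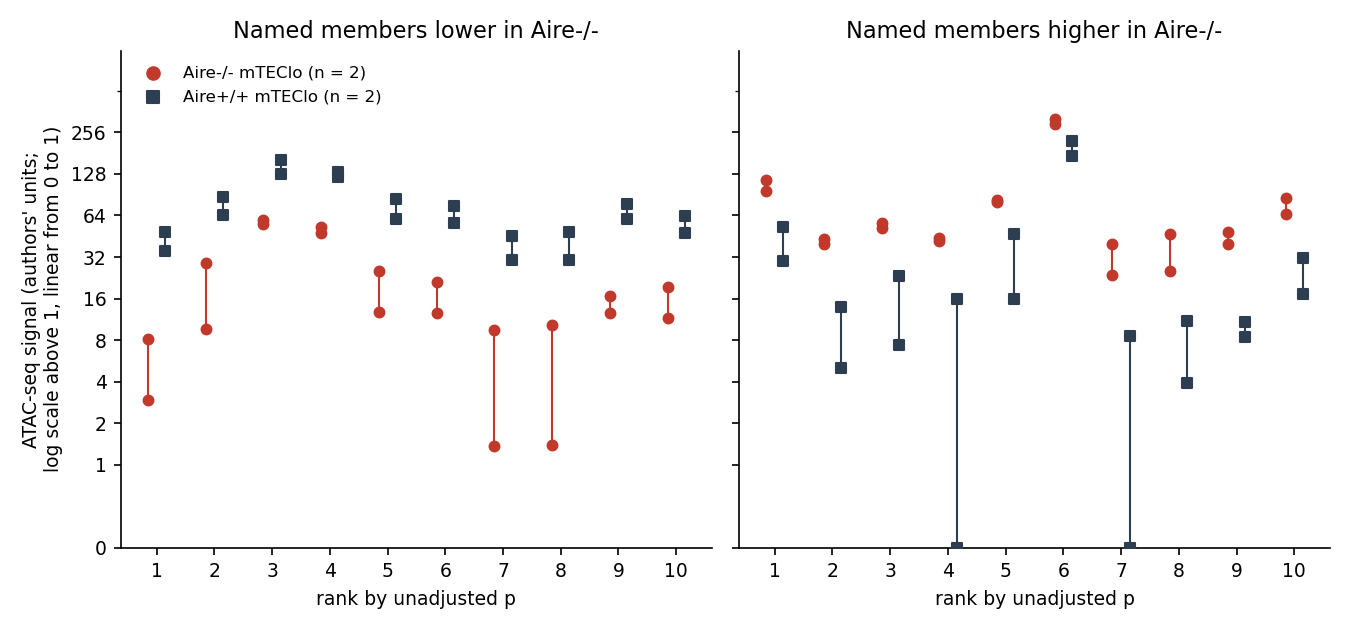
Signal of the 20 named members in the 2 Aire-/- and 2 Aire+/+ mTEClo libraries, ordered by unadjusted p, for members lower (left) and higher (right) in Aire-/-; the axis is logarithmic above 1 and linear below, and each line joins the 2 replicates. The genotypes do not overlap in any of them, which the choice required, and 2 of those higher in Aire-/- are listed at 0 in Aire+/+ replicate 2.

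The first of the lower members, chr14:102203922-102204421, had a signal of 8.20 and 2.96 in Aire-/- mTEClo, against 35.6 and 48.4 in Aire+/+ mTEClo. Both Aire-/- libraries were far below, a log2 fold change of -2.82 ± 0.50 (SE; adjusted p 0.664, limma). Brg1-/- mTEClo had 35.1 and 43.2, and Brg1+/+ mTEClo 21.2 and 34.7, all above both Aire-/- libraries. In mTEChi it was 21.2 and 17.7 in Aire-/-, against 46.2 and 23.9 in Aire+/+, again lower in Aire-/- without overlap.

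The member chr10:93637453-93637952 had 9.63 and 29.0 in Aire-/- mTEClo, against 65.0 and 86.8 in Aire+/+ mTEClo. The Aire-/- replicates themselves differed widely, and the log2 fold change was -2.09 ± 0.40 (SE). In mTEChi its signal was 59.7 and 72.4 in Aire-/-, against 98.3 and 151 in Aire+/+, lower by 0.88 on the log2 scale (unadjusted p 0.0303).

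A pair of stronger, mTEClo-marked regions had closer replicates. At chr9:47770470-47770969 the signal was 47.9 and 52.7 in Aire-/-, against 121 and 132 in Aire+/+, a log2 fold change of -1.31. At chr12:16049095-16049594 it was 55.1 and 59.8 in Aire-/-, against 161 and 129 in Aire+/+, also -1.31 (adjusted p 0.724 for each, limma). At the chromosome 12 region mTEChi went the other way, with 31.0 and 36.6 in Aire-/-, against 3.95 and 11.6 in Aire+/+. It was therefore below its wild type in one sort and above it in the other, without overlap in either.

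The member chr1:159021108-159021607 was low without Aire in both sorts. It had 19.5 and 11.5 in Aire-/- mTEClo, against 63.3 and 48.0 in Aire+/+ mTEClo. In mTEChi it had 16.8 and 8.54 in Aire-/-, against 47.2 and 80.9 in Aire+/+. The 4 Aire-/- values all lay below the 4 Aire+/+ values, with log2 fold changes of -1.81 in mTEClo and -2.27 in mTEChi (adjusted p 1 and 0.0767, limma). In the Brg1 line mTEClo it held 69.7 and 78.6 in Brg1-/-, against 47.4 and 65.4 in Brg1+/+, which overlapped with none of the Aire-/- values.

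At chr2:180011393-180011892 the signal was 25.3 and 12.7 in Aire-/- mTEClo, against 60.8 and 83.6 in Aire+/+ mTEClo, and in mTEChi 13.6 and 16.8 in Aire-/-, against 47.3 and 46.1 in Aire+/+. At chr4:100063162-100063661, an mTEClo-marked region, it was 21.2 and 12.6 in Aire-/- mTEClo, against 56.1 and 75.3 in Aire+/+ mTEClo, and in mTEChi 5.59 and 2.01 in Aire-/-, against 15.3 and 15.3 in Aire+/+. Both were lower in Aire-/- in both sorts, by 1.93 on the log2 scale in mTEClo.

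Among the higher members, chr6:142287404-142287903 had the strongest signal, 295 and 322 in Aire-/- mTEClo, against 222 and 173 in Aire+/+ mTEClo. The log2 fold change was 0.65 ± 0.16 (SE; unadjusted p 0.00047). In mTEChi it was 336 and 230 in Aire-/-, against 155 and 152 in Aire+/+, a change of 0.86 (adjusted p 0.107, limma). The Brg1 line held 211 and 216 in Brg1-/- mTEClo, against 200 and 226 in Brg1+/+ mTEClo, all below both Aire-/- libraries.

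The member of smallest p in that direction, chr8:15042779-15043278, had 96.9 and 116 in Aire-/- mTEClo, against 52.5 and 29.8 in Aire+/+ mTEClo, a log2 fold change of 1.40 ± 0.31 (SE). In mTEChi it had 68.3 and 59.4 in Aire-/-, against 45.8 and 9.95 in Aire+/+. Aire-/- was the higher genotype in both sorts.

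The member chr2:166701092-166701591, which is mTEChi-marked, had 39.9 and 43.1 in Aire-/- mTEClo, against 14.0 and 5.01 in Aire+/+ mTEClo. In mTEChi it had 70.1 and 76.8 in Aire-/-, against 30.1 and 14.1 in Aire+/+. In the Brg1 line it had 46.1 and 39.0 in Brg1-/- mTEClo, against 10.4 and 19.02 in Brg1+/+ mTEClo, so each knockout lay above its own wild type, with log2 fold changes of 2.16 for Aire and 1.53 for Brg1 (adjusted p 1 and 0.266, limma).

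At chr7:50653915-50654414 the signal was 39.8 and 48.8 in Aire-/- mTEClo, against 8.39 and 10.8 in Aire+/+ mTEClo, and no library of the other 6 groups exceeded the 23.4 of Brg1+/+ mTEChi replicate 2. At chr8:53302081-53302580 it was 44.0 and 41.9 in Aire-/- mTEClo, against 15.96 and a listed 0 in Aire+/+ mTEClo, while in mTEChi it was 55.2 and 16.6 in Aire-/-, against 47.9 and 19.96 in Aire+/+. The large fold change there rests on the replicate listed at 0.

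Of the 10 lower members 8 were also lower in Aire-/- mTEChi, 4 of them at an unadjusted p under 0.05, and of the 10 higher 7 were also higher, 3 of them at that p. Over all members, 5.24% were lower and 4.93% higher in Aire-/- mTEChi at that p (percent called 5.24 lower and 4.67 higher in the whole table). The named members were chosen by their p in mTEClo, and the spread behind the mTEChi p-values includes the mTEClo libraries. The counts of 4 and 3 are thus not independent of the choice, and their excess over these shares cannot be judged. Over all members, the Aire fold changes in mTEClo and mTEChi had an r of 0.05 and the same sign in 52.0%. The difference between the Aire effects in the 2 sorts passed the test at 1 region of the table (percent called 0.000399), which is no member, and at 0 members. At an unadjusted p under 0.05 it had 9999 members, 4.87%, against 5.22% of the table. Without Aire+/+ mTEChi replicate 1 the count in the table was 76, of which 71 are members, and without Aire+/+ mTEChi replicate 2 it was 3, all members. It was 0 without Aire-/- mTEClo replicate 2, without Aire+/+ mTEClo replicate 2 and without Aire-/- mTEChi replicate 2.

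The fit over 16 libraries called 15 regions for Aire loss in mTEChi (percent called 0.00599), and all 15 are members here. At the 9 that were lower in Aire-/- mTEChi, the mTEClo fold change had a median of -0.36 and 7 lay below 0. At 5 of the 9 both Aire-/- libraries lay below both Aire+/+ libraries, which held for 17.1% of the whole table. Of the 9, however, 6 are mTEClo-marked, a class in which this held for 27.9%. Their median signal was 89.3, against 15.7 over all members. The spread behind the 15 calls includes the mTEClo libraries, so these shares are not independent of the choice. At the 6 that were higher, the mTEClo median was 0.13, 5 lay above 0 and none had a gap between the genotypes. None of the 15 reached an unadjusted p under 0.05 in mTEClo (limma, 8 libraries), and the mTEClo interval lay within ±1 at 7 of the 9 and 5 of the 6.

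Regions near 0 in one genotype were rare. At 37 members both Aire-/- libraries were under 2 while both Aire+/+ libraries were at 10 or more, and at 21 the reverse held. In the whole table these were 107 regions (percent called 0.0427) and 49 regions (percent called 0.0196). The member of smallest p of all, chr5:65105835-65106334, had 1.28 and 1.01 in Aire-/- mTEClo, against 21.5 and 25.2 in Aire+/+ mTEClo (log2 fold change -3.50, adjusted p 0.520, limma). At chr2:179207083-179207582 the signal was 21.4 and 26.7 in Aire-/- mTEClo, against 1.21 and a listed 0 in Aire+/+ mTEClo. Both have a mean signal below that of the median member, and they were chosen after their values were seen. Each is a member only through the genotype where it is high. In mTEChi the first held 7.59 and 5.58 in Aire-/-, against 10.9 and 17.6 in Aire+/+, and the second 9.97 and 7.95 in Aire-/-, against 16.7 and 1.84 in Aire+/+.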

How the data were processed

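The authors deposited 1 table of signal values for 250313 regions of 500 bp in 16 libraries; per the submitters' processing notes Bowtie2, MACS2 and mm9 were used. The definition of regions, the Tn5 read shift, duplicate removal and scaling between libraries are not stated in those notes. The signal is not whole counts and depth is unknown. Columns were matched to samples by their labels; positions are printed counted from 1. The gene tables at hand belong to another build, so no gene, marker or sequence was assigned.

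Signal was analysed as log2(signal + 1) with limma 3.58.1 in R 4.3.3 (1 mean per group, trend and robust moderation, two-sided, Benjamini-Hochberg over the whole table), over the 8 mTEClo libraries, with 4 residual degrees of freedom, or all 16 for comparisons with mTEChi. A fold change on this scale understates changes of low regions. The scripts were checked on simulated data. Classes came from a limma fit of the 8 Brg1-line libraries. Named members are, per direction, the 10 of smallest p at or above the median mean signal of 15.7 whose genotypes did not overlap, since none were called; named bins are the 5 of smallest p per direction. Members, lists and the choice of the 8-library fit were made with earlier results of these data known. Figures were drawn with matplotlib.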

Additional observations from a re-analysis of the deposited data

Results flagged for a closer look

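Taken from the named members and the region called for the difference between sorts, 3 regions had opposite Aire effects in the 2 sorts. In each of the 3 the genotypes did not overlap in either sort. Opposite signs alone were common, since the Aire fold changes shared a sign at only 52% of all members. How many members had opposite effects without overlap was not counted. At chr12:16049095-16049594 the Aire fold change in mTEClo minus that in mTEChi was -3.45 on the log2 scale, and every Aire-/- library was below its wild type in mTEClo and above it in mTEChi (unadjusted p 6.1e-06, adjusted p 0.764, limma). At chr1:171462097-171462596 the difference was 2.10: the signal was 85.9 and 65.1 in Aire-/- mTEClo, against 31.2 and 17.4 in Aire+/+ mTEClo, and 30.7 and 22.4 in Aire-/- mTEChi, against 39.3 and 33.7 in Aire+/+ mTEChi (adjusted p 0.953, limma).

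The third, chr2:77823875-77824374, was the only region of the table to pass the test of the difference (5.43, adjusted p 0.0136, limma), and its mean signal of 5.86 keeps it out of the members. It had 8.31 and 13.9 in Aire-/- mTEClo, against 1.21 and a listed 0 in Aire+/+ mTEClo, and 4.30 and 2.12 in Aire-/- mTEChi, against 18.1 and 24.5 in Aire+/+ mTEChi. In mTEClo of the Brg1 line it held 104 and 154 in Brg1-/-, against 85.9 and 74.4 in Brg1+/+, far above every Aire-line library. It was not called without replicate 2 of any of these 4 groups (adjusted p 0.0619 to 0.439, limma), with a pseudocount of 5 (0.814) or after quantile normalization (0.127).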

How the results depend on the processing

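The absence of calls for Aire loss in mTEClo held under 13 of 15 alternatives; leaving out libraries gave 0 to 33 calls. The difference between the Aire and Brg1 effects, a comparison added after the data were seen, had 0 calls under all 15. For 1 Mb bins the count was 0 under 11 of 12, and 0 to 8 without single libraries. The medians over members, mTEChi-marked and mTEClo-marked members moved by less than the replicate SD under all their alternatives. With 2 libraries per group, leaving 1 out can hardly shift a median by more than this SD. Those fits therefore say nothing about stability, and the mTEChi-marked median changed sign among them. Of the alternatives for the medians 1, without chromosome X, was added after the data were seen. Brg1 calls in mTEClo were 370 with a pseudocount of 5, 48 after quantile normalization, 682 after re-centring, 47 with array quality weights, 112 over members only, 1124 over members at or above the median mean, 1 with all 16 libraries and 11 with only the 4 compared; without single libraries they ranged from 0 to 323. Calls for the Aire effect in mTEClo minus that in mTEChi were 0 with a pseudocount of 5, after quantile normalization and over members only, and 0 to 76 without single libraries. The causes were not tested.

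Same-numbered deviations over members had correlations of -0.01 to 0.04 between groups, which cannot exclude that the replicate numbers pair the samples. Among the Aire-line mTEClo libraries, a 0 was listed only in those numbered 2. Their percentage of signal on chromosome X was 1.84 (Aire-/-) and 1.676 (Aire+/+), against 1.378 and 1.325 in those numbered 1. With a replicate block the counts were 0 for Aire, 279 for Brg1, 0 for bins and 1 for the difference between the sorts. Unknown depth, 2 libraries per group and an undescribed scaling between libraries limit every value.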
